A study of Mus musculus with 8 samples.

Results

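A set of 10 genes of the mouse egg coat, the egg membrane and the factors that the oocyte secretes was examined in polyadenylated RNA of 2-cell embryos cultured with the solvent DMSO or with triclocarban. The genes were taken by name: Zp1, Zp2, Zp3, Gdf9, Bmp15, Oosp1, Astl, Izumo1r, Cd9 and Figla. All 10 were found, by Ensembl identifier, among the 37310 genes of the expression table. The zona pellucida is a coat of glycoproteins that the growing oocyte lays down around itself. ZP2 and ZP3 are needed for the coat to form and ZP2 is cut after fertilization by ovastacin, the protease encoded by Astl, which is released from cortical granules and ends sperm binding. GDF9 and BMP15 are growth factors of the transforming growth factor beta family that the oocyte sends to the follicle cells around it. Many mRNAs that the oocyte makes and stores are cleared as the embryo passes from maternal to embryonic transcripts around the 2-cell stage. When the mRNA of each of these 10 genes is lost was not tested.

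The control group had 4 libraries of 2-cell embryos from fertilized eggs cultured in G1 medium with DMSO, and the treated group had 4 libraries of 2-cell embryos from the same medium with 6 µM triclocarban (TCC), an antibacterial compound of personal care products. Lower concentrations of 2 and 4 µM are named in the culture protocol, but the treated libraries are all labelled 6 µM. The question, by the series title, is what triclocarban does to the maternal-to-zygotic transition. Strain, age of the mothers, hour of collection, the number of embryos in a library and any sequencing batch are not given in the labels. Nothing in the labels states that libraries of one group came from separate cultures, so a p-value here covers the spread from library to library only, and that spread may be technical.

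Values were FPKM, fragments per length of transcript, scaled to the mapped fragments of the library. The sums of FPKM ran from 477882 to 605986, and 12828 to 13541 genes reached 1 FPKM in a control, against 11788 to 11957 in a treated library. Read depth is unknown, since whole fragments could not be recovered from the low values. FPKM is a share of the RNA of a library, so in these bulk samples fewer contributing cells and less RNA per cell cannot be told apart. Control libraries 1 and 2 stood apart from control libraries 3 and 4, and triclocarban library 2 from the other treated libraries. The changes are therefore given with and without them. These libraries were picked with their values known, so a p-value from a fit without them is a description and no independent test. Of 10 markers of oocyte and zygote, 9 were analysed and had at least 1 FPKM somewhere. Their summed level was 1178 to 3480 FPKM in the controls and 4238 to 7077 with triclocarban, and 7 were higher. In the same fit, given below, 11.3% of all genes tested were higher and 30.8% lower. The summed level of 8 of 10 markers of the 2-cell embryo was 612 to 680.7 FPKM in the controls and 297.4 to 882.3 with triclocarban. These markers moved both ways, with Zscan4c, Zscan4f and Usp17la higher and Zfp352 and Tdpoz4 lower, and reads of the near-identical Zscan4 copies may be split. Of 12 markers of cumulus and granulosa cells 8 stayed below 1 FPKM, among them Amh and Lhcgr at 0 in every library, with a summed level of 23.4 to 32.3 FPKM in the controls and 9.63 to 19.5 with triclocarban, most of it from Amhr2 in the controls. All 4 that were tested were called: Amhr2 (21.4 to 1.23 FPKM) and Tnfaip6 (3.30 to 0.331) were lower, and Cyp19a1 (2.34 to 8.33) and Fshr (0.921 to 3.04) were higher. Of the sperm markers 8 of 10 analysed stayed below 1 FPKM, Acr was at 0 and Prm2 was higher (2.24 to 7.73 FPKM). The summed level of the sperm markers was 7.14 to 19.2 FPKM in the controls and 17.04 to 25.38 with triclocarban. Most of it came from Spam1 (8.86 to 13.4 FPKM), which was not called (limma adjusted p = 0.172). The part of these levels in the results was not tested.

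FIGLA, the transcription factor encoded by Figla, is known to act on the zona genes in oocytes through E-boxes, which are short DNA elements of the form CANNTG. RefSeq promoter windows (GRCm38.p6, the assembly of mm10, 250 bases before to 50 after the annotated start) were matched by symbol for 7 of the 10 genes, and Zp1, Zp2 and Gdf9 were not matched. The element is a palindrome, so a search on the plus strand covers both strands. It was found in 72.3% of all 32851 windows, and 6.5% of windows held 4 or more. The Zp3 window held 4, of which the one 181 bases before the start is a CACGTG and the one 55 bases before is a CAGGTG. The Oosp1 window held 5, the Figla window 4, the Cd9 window 3, the Bmp15 and Izumo1r windows 1 each, and the window at the main start of Astl 0. A second Astl window, at a start inside the gene, held 3. The start used for Figla also lies inside the annotated gene, 1020 bases from its first base. Upstream bases free of annotated exons were 0 for Cd9, 68 for Izumo1r and 151 for Oosp1, so E-boxes in these windows may lie in or past an annotated exon. The element TAATTG, of the type bound by the oocyte factor NOBOX, was searched on both strands and cannot overlap an E-box. It occurred in 8.0% of all windows and in none of these, which says only that those letters are not there. The upstream parts of 3 windows, cut where any annotated exon begins, are shown because Zp3 fell while Bmp15 and Oosp1 rose; capitals mark E-boxes.
Zp3, chr5:135979855-135980098, plus strand: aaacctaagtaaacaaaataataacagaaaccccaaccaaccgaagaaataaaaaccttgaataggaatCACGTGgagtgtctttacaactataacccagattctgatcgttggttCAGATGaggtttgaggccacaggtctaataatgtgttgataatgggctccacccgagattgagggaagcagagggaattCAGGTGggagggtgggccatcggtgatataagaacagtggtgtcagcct
Oosp1, chr19:11691151-11691301, minus strand: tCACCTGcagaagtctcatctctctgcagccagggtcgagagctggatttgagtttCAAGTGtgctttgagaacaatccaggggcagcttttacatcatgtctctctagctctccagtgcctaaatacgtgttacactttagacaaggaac
Bmp15, chrX:6320725-6320974, minus strand: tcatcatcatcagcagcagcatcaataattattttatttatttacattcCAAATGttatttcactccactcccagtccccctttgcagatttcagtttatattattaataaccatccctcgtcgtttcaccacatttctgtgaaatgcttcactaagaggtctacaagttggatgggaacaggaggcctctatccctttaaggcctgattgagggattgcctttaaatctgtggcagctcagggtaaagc

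With triclocarban, the transcripts of the sperm receptor JUNO (Izumo1r), the growth factor BMP15 and the oocyte-secreted protein OOSP1 rose, and that of the egg coat protein ZP3 fell. Means went from 26.01 to 129.5 FPKM for Izumo1r, from 530.1 to 1098 for Bmp15, from 1672 to 2838 for Oosp1 and from 53.2 to 25.1 for Zp3. All 10 genes passed the filter of at least 1 FPKM in at least 4 libraries. Of these, 3 were higher, 1 was lower and 6 did not pass the threshold (limma on log2(FPKM + 1), Benjamini-Hochberg adjusted p under 0.05 over the 12941 genes tested). Over all genes tested, 11.3% were higher and 30.8% lower, 42.1% in all. The median log2 change was 0.69 over the 10 genes and -0.19 over all genes tested. These medians were 0.98 and 0.06 with the libraries scaled by median of ratios and 0.75 and 0.14 with quantile normalization, so the median of the 10 genes lay 0.88, 0.92 and 0.61 above that of all genes in the 3 scalings. It was 1.17, or 1.29 above all genes, without controls 1 and 2, and 0.17, or 0.47 above, without controls 3 and 4. Zp3 and Cd9 lay below the median of all genes. The share of higher genes among all genes called was 26.9% in the deposited FPKM, 45.3% on the median-of-ratios scale and 50.6% with quantiles made equal. The triclocarban and control libraries did not overlap for the 4 genes called, while 10.2% of all genes tested lay wholly above the controls and 30% wholly below.

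**Figure D1:**
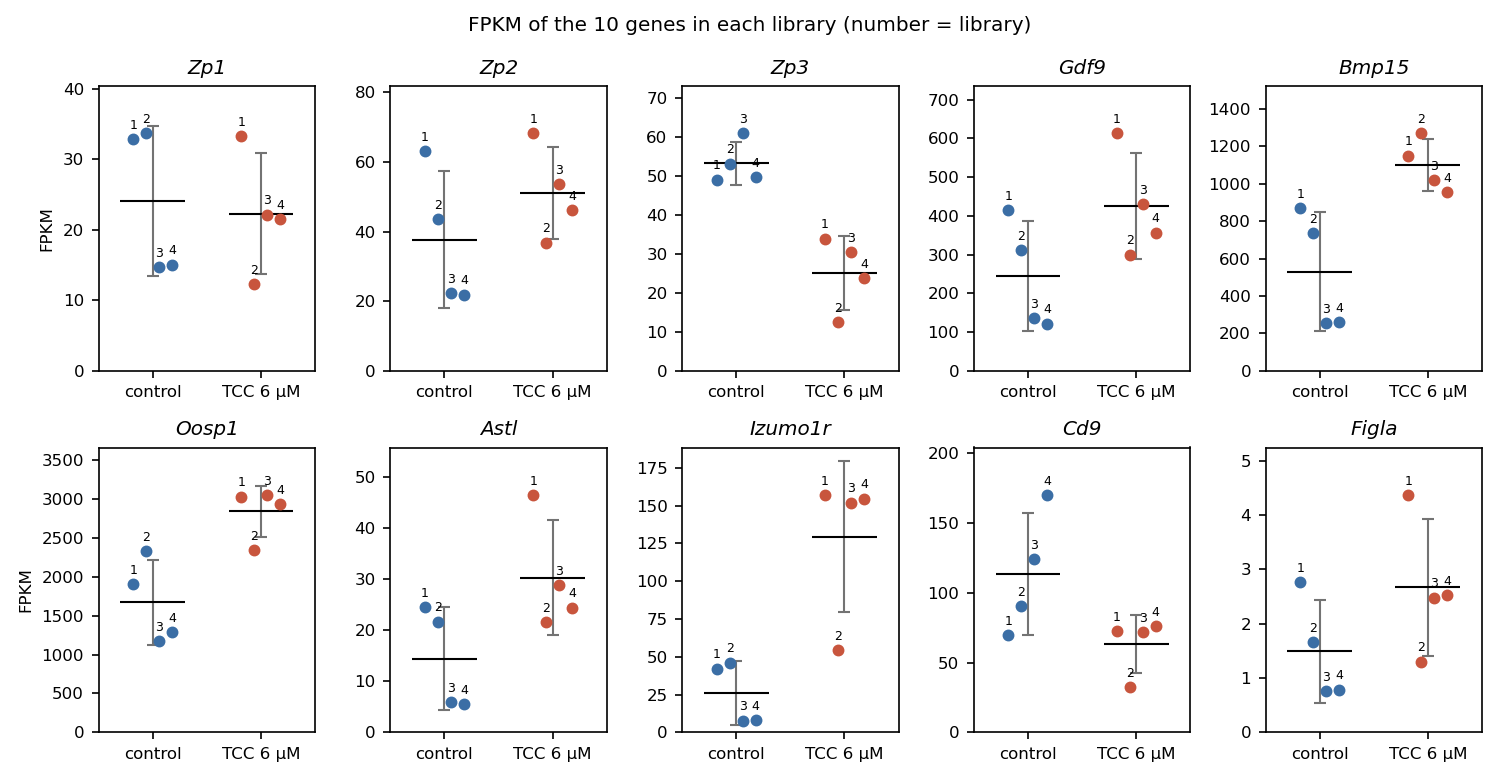
FPKM (vertical axes, each starting at 0) of the 10 genes in the 4 control and 4 triclocarban (TCC) libraries; points carry the library number, black lines are means and grey bars are ± SD (n = 4). The groups do not overlap for Zp3, Bmp15, Oosp1 and Izumo1r, and controls 3 and 4 lie below controls 1 and 2 in 8 panels.

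The 3 genes of the egg coat did not move alike. Zp3 (ENSMUSG00000004948.6, chromosome 5, 135980099 to 135988624, plus strand, GRCm38), which encodes the coat protein that pairs with ZP2 in the filaments of the zona, was at 49.0, 53.0, 60.8 and 49.7 FPKM in controls 1 to 4 and at 33.9, 12.5, 30.4 and 23.7 in triclocarban libraries 1 to 4. Every treated library lay below every control, with triclocarban library 2 the lowest. Its mean was 53.2 ± 5.42 in the controls and 25.1 ± 9.44 with triclocarban (SD, n = 4 each), which is -1.14 ± 0.31 on the log2 scale (standard error; limma adjusted p = 0.0123). It was the only one of the 10 genes whose pairs of controls overlapped. The fall was -1.19 without controls 1 and 2 (limma adjusted p = 0.031) and -1.08 without controls 3 and 4, where it missed the threshold (adjusted p = 0.0663). Leaving out triclocarban library 2 gave -0.85 (limma adjusted p = 0.0104).

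Zp2 (ENSMUSG00000030911.5, chromosome 7, 120126772 to 120145291, minus strand), which encodes the protein that sperm bind and that ovastacin cuts, was at 63.1, 43.6, 22.3 and 21.9 FPKM in the controls and at 68.2, 36.8, 53.6 and 46.2 with triclocarban. The groups overlapped: controls 3 and 4 were low, and control 1 lay above 3 of the treated libraries. The log2 change was 0.53 ± 0.36 (standard error; limma adjusted p = 0.262). It was 1.14 without controls 1 and 2, past the threshold (limma adjusted p = 0.00972), and -0.07 without controls 3 and 4 (adjusted p = 0.888). Zp1 (ENSMUSG00000024734.2, chromosome 19, 10914287 to 10920632, minus strand), which encodes the protein that cross-links the filaments, was at 32.9, 33.7, 14.7 and 15.1 FPKM in the controls and at 33.3, 12.3, 22.1 and 21.5 with triclocarban. These ranges were nearly the same, and the change of -0.08 did not pass the threshold (limma adjusted p = 0.885). Against controls 3 and 4 alone it was 0.47 and against controls 1 and 2 alone -0.63, so its direction depended on the pair of controls.

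Astl (ENSMUSG00000050468.5, chromosome 2, 127338639 to 127357651, plus strand), the gene of ovastacin, was at 24.4, 21.7, 5.93 and 5.53 FPKM in the controls and at 46.4, 21.5, 28.8 and 24.3 with triclocarban. Controls 3 and 4 lay far below all other libraries, and controls 1 and 2 lay among the treated ones. The mean was 14.4 ± 10.1 in the controls and 30.3 ± 11.2 with triclocarban (SD, n = 4 each), or 1.24 on the log2 scale that just missed the threshold (limma adjusted p = 0.054). It was 2.16 without controls 1 and 2 (limma adjusted p = 0.000873) and 0.32 without controls 3 and 4 (adjusted p = 0.514). It passed in 7 of 20 alternatives. The others were without control 1 (limma adjusted p = 0.0153), without control 2 (0.0266), after median-of-ratios scaling (0.0135) or quantile normalization (0.0182), with array weights (0.0311) and with the replicate block (0.0261).

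Of the genes of the egg membrane, Izumo1r rose and Cd9 did not pass the threshold. Izumo1r (ENSMUSG00000031933.10, chromosome 9, 14885814 to 14903949, minus strand) encodes JUNO, a relative of the folate receptors that binds IZUMO1 on the sperm head. It was at 42.3, 46.0, 7.68 and 8.09 FPKM in controls 1 to 4 and at 157.0, 54.6, 151.8 and 154.6 in triclocarban libraries 1 to 4. All treated libraries lay above all controls, and triclocarban library 2 was close to controls 1 and 2. The mean rose from 26.01 ± 20.98 to 129.5 ± 50.01 FPKM (SD, n = 4 each), which is 2.59 ± 0.60 on the log2 scale (standard error; limma adjusted p = 0.00486). Only 0.4% of genes tested had a larger positive change. It passed the threshold in each of the 20 alternatives, with changes from 1.41 without controls 3 and 4 (limma adjusted p = 0.0412) to 3.76 without controls 1 and 2. The change was 2.96 without triclocarban library 2.

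Cd9 (ENSMUSG00000030342.8, chromosome 6, 125460266 to 125494791, minus strand) encodes a tetraspanin of the egg membrane that is needed for sperm and egg to fuse. It was at 69.4, 90.4, 123.9 and 170.1 FPKM in the controls and at 72.5, 32.5, 71.9 and 76.1 with triclocarban. Control 1 lay among the treated libraries, and unlike the other genes controls 3 and 4 were the high ones. The log2 change of -0.83 did not pass the threshold (standard error 0.36, limma adjusted p = 0.0838), and 69.6% of genes tested had a change above it. It passed without control 1 (-1.04, limma adjusted p = 0.0371) and without controls 1 and 2 (-1.26, adjusted p = 0.0218), and it was -0.40 without controls 3 and 4. Exons of Cd9 share 218 bases with the opposite-strand gene Gm26728, and the strand setting is not given. Reads within these shared bases thus cannot be told apart. Gm26728 was not among the genes of the expression table.

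Of the growth factors, Bmp15 rose. Bmp15 (ENSMUSG00000023279.7, chromosome X, 6314107 to 6320721, minus strand) was at 868.5, 736.7, 255.7 and 259.7 FPKM in the controls and at 1150, 1268, 1020 and 955.5 with triclocarban. Each treated library was above each control, the spread with triclocarban was small, and library 2 was the highest. The mean rose from 530.1 ± 319.2 to 1098 ± 139.2 FPKM (SD, n = 4 each), which is 1.26 ± 0.41 on the log2 scale (standard error; limma adjusted p = 0.0277). It passed the threshold in 12 of 20 alternatives. The change was 2.08 when controls 1 and 2 were left out and 0.45 without controls 3 and 4 (limma adjusted p = 0.203), and the call was also lost without control 3 (0.0867), control 4 (0.0845), triclocarban library 1 (0.0646), 2 (0.057) or 3 (0.0531), with no filter (0.0878) and after quantile normalization (0.075).

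Gdf9 (ENSMUSG00000018238.6, chromosome 11, 53431023 to 53437904, plus strand), which encodes the partner of BMP15, was at 414.8, 311.1, 135.4 and 122.2 FPKM in the controls and at 612.8, 299.4, 431.0 and 357.0 with triclocarban. Controls 1 and 2 lay within the range of the treated libraries, and controls 3 and 4 below it. The mean was 245.9 ± 141.8 and 425.1 ± 136.3 FPKM (SD, n = 4 each), and the log2 change of 0.93 did not pass the threshold (standard error 0.41, limma adjusted p = 0.0919). It was 1.66 without controls 1 and 2 (limma adjusted p = 0.00241) and 0.19 without controls 3 and 4 (adjusted p = 0.706). It also passed without control 1 (limma adjusted p = 0.0212), after median-of-ratios scaling (0.0179) and with array weights (0.0429), which made 4 of 20 alternatives.

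Oosp1 (ENSMUSG00000041857.3, chromosome 19, 11667460 to 11691150, minus strand), which encodes a secreted protein made by oocytes, had the highest level of the 10 genes. It was at 1903, 2329, 1172 and 1285 FPKM in the controls and at 3026, 2344, 3050 and 2932 with triclocarban. The treated libraries lay above the controls, by little in the case of triclocarban library 2 against control 2. By mean level it ranked at place 29 of all 37310 genes in the controls and at place 26 with triclocarban. The mean rose from 1672 ± 543.1 to 2838 ± 333.4 FPKM (SD, n = 4 each), which is 0.81 ± 0.29 on the log2 scale (standard error; limma adjusted p = 0.0412). It passed in 11 of 20 alternatives. The change was 1.2 without controls 1 and 2, 0.42 without controls 3 and 4 (limma adjusted p = 0.244) and 0.31 after quantile normalization (adjusted p = 0.357), and the call was also lost with no filter (0.142) and without control 3 (0.131), control 4 (0.115) or triclocarban library 1 (0.0992), 3 (0.0978) or 4 (0.0944).

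Figla (ENSMUSG00000030001.3, chromosome 6, 86016171 to 86020996, plus strand), which encodes the transcription factor of the zona genes, was near the detection filter, at 2.77, 1.66, 0.763 and 0.784 FPKM in the controls and at 4.37, 1.303, 2.48 and 2.52 with triclocarban. The groups overlapped, and the log2 change of 0.57 did not pass the threshold (standard error 0.33, limma adjusted p = 0.187). It passed without controls 1 and 2 (0.98, limma adjusted p = 0.0346) and after quantile normalization (0.94, adjusted p = 0.0201). The pseudocount of 1 FPKM understates changes at this level, and with 0.1 the change was 0.86.

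**Figure D2:**
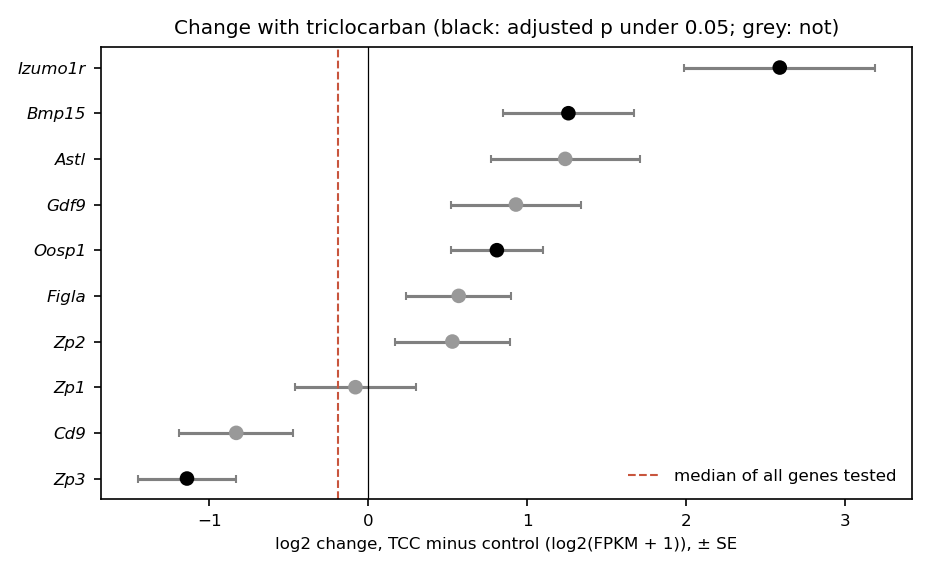
Log2 change of each gene with triclocarban on the log2(FPKM + 1) scale (horizontal axis), with bars of ± 1 standard error from limma (n = 4 against 4); black points passed an adjusted p of 0.05, grey points did not, and the dashed line is the median of all genes tested, -0.19. Izumo1r lies at 2.59 and Zp3 at -1.14.

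The controls themselves differed. For 8 of the 10 genes controls 1 and 2 were both above controls 3 and 4, as they were for 43.3% of all genes tested. For Cd9 they were both below, as for 30.9% of genes tested. The mean log2 difference of controls 1 and 2 from 3 and 4 was 2.34 for Izumo1r, 1.83 for Astl, 1.63 for Bmp15 and 1.48 for Gdf9, where the median of all genes tested was 0.16. Only 0.5% of genes tested had a larger positive difference than Izumo1r. The difference was 1.21 for Zp2, 1.11 for Zp1, 0.84 for Figla, 0.78 for Oosp1, -0.11 for Zp3 and -0.87 for Cd9. This difference within the controls was larger in size than the change with triclocarban for 7 of the 10 genes, against 42.6% of all genes tested. They were Bmp15, which was called (1.63 against 1.26), and Zp1, Zp2, Gdf9, Astl, Cd9 and Figla, which were not. Triclocarban library 2 was the lowest treated library for 9 of the 10 genes, against 44.9% of genes tested, and the exception was Bmp15. Without that library the log2 changes of the genes not yet given so were 0.16 for Zp1, 0.68 for Zp2, 1.08 for Gdf9, 1.19 for Bmp15, 0.90 for Oosp1, 1.38 for Astl, -0.54 for Cd9 and 0.77 for Figla. Of these only Oosp1 passed the threshold (limma adjusted p = 0.027). The part of the hour of collection, of embryo number or of batch in these differences was not tested.

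**Figure D3:**
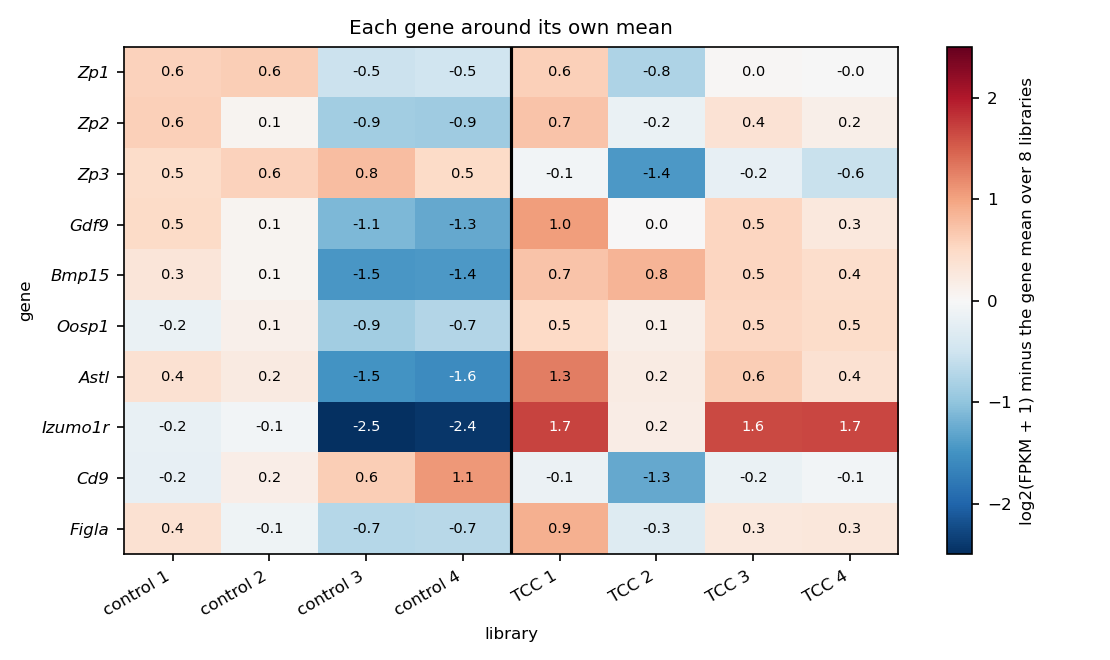
Log2(FPKM + 1) of each gene (rows) in each library (columns) minus the mean of that gene over the 8 libraries, shown by colour and printed in the cells. Controls 3 and 4 are the lowest libraries for Zp2, Gdf9, Bmp15, Oosp1, Astl, Izumo1r and Figla and the highest for Cd9. Triclocarban (TCC) library 2 is the lowest for Zp1, Zp3 and Cd9.

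**Figure D4:**
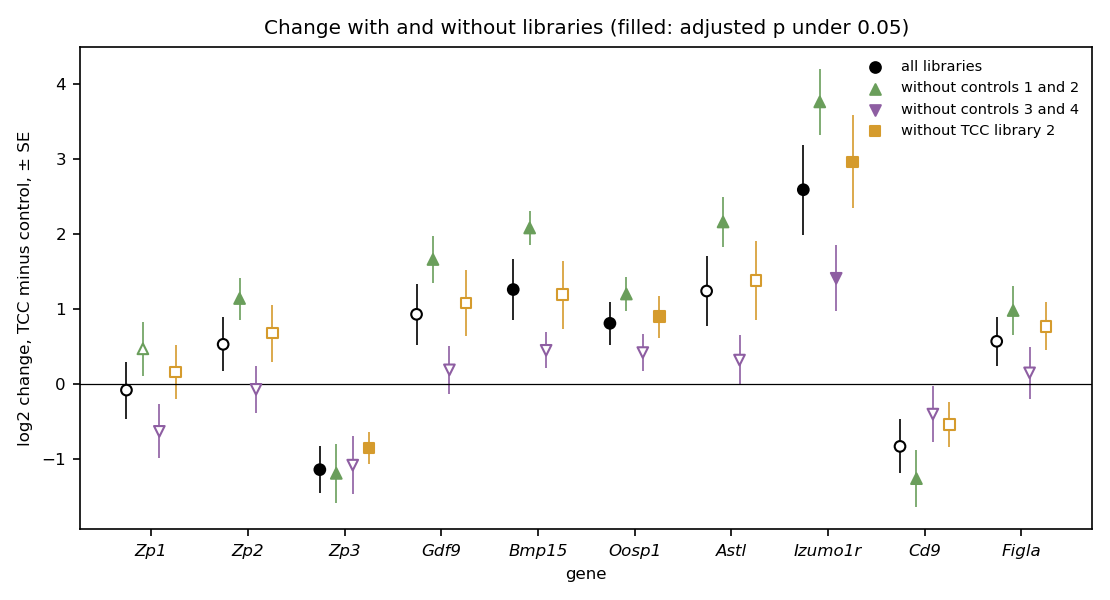
Log2 change with triclocarban ± standard error from limma (vertical axis) for each gene with all libraries, without controls 1 and 2, without controls 3 and 4 and without triclocarban (TCC) library 2; filled symbols passed an adjusted p of 0.05. For Izumo1r all 4 symbols are filled, and for Zp3 all but the one without controls 3 and 4.

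A ratio of 2 genes within a library depends little on the total that FPKM is scaled to (here the ratio of FPKM + 1). So 5 such ratios were compared, each by exact permutation of the group labels (70 assignments, two-sided) and with p-values adjusted over the 5. The pairs were chosen with earlier results of these data known. Zp2/Zp3 and Izumo1r/Cd9 each set a gene with a positive log2 change against one with a negative change. The p-values of the ratios are thus no test independent of the single genes. The log2 ratio of Zp2 to Zp3 was 0.36, -0.28, -1.41 and -1.15 in controls 1 to 4 and 0.99, 1.49, 0.80 and 0.93 with triclocarban. Zp2 was thus above Zp3 in every treated library and below it in 3 of 4 controls. The means were -0.62 ± 0.81 and 1.05 ± 0.30 (SD, n = 4 each), a difference of 1.67 (exact permutation p = 0.0286, adjusted p = 0.0357). The ratio of Zp1 to Zp3 rose by 1.06, from -1.21 ± 0.71 to -0.15 ± 0.20, and that of Zp2 to Zp1 by 0.61, from 0.59 ± 0.23 to 1.21 ± 0.22. Both differences had the same exact p of 0.0286, the smallest that 70 assignments allow, and the same adjusted p. The Zp2 to Zp1 ratio was about as far apart without controls 1 and 2 (0.66) as without controls 3 and 4 (0.56), while the Zp2 to Zp3 ratio differed by 2.33 and 1.01. Leaving out triclocarban library 2, the differences were 1.52 for Zp2 to Zp3, 1.01 for Zp1 to Zp3 and 0.51 for Zp2 to Zp1, and none passed (exact permutation, adjusted p = 0.0952, 0.143 and 0.0952). These ratios also did not pass when triclocarban library 1, 3 or 4 was left out instead, so the loss was not particular to library 2.

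The log2 ratio of Izumo1r to Cd9 was -0.70, -0.96, -3.85 and -4.23 in the controls and 1.10, 0.73, 1.07 and 1.01 with triclocarban. The order of these genes was turned: Cd9 was the more abundant transcript per length in each control and Izumo1r in each treated library. The difference was 3.42 (exact permutation p = 0.0286, adjusted p = 0.0357), 5.02 without controls 1 and 2, 1.81 without controls 3 and 4 and 3.5 without triclocarban library 2. It did not pass in any of these alternatives (exact permutation, adjusted p = 0.0833, 0.0833 and 0.0952). Without a pair of controls no p can be below 0.0667. The log2 ratio of Gdf9 to Bmp15 was -1.06, -1.24, -0.91 and -1.08 in the controls and -0.91, -2.08, -1.24 and -1.42 with triclocarban. Its means of -1.07 ± 0.13 and -1.41 ± 0.49 (SD, n = 4 each) differed by -0.34, which was within the spread of the libraries (exact permutation p = 0.257). Without triclocarban library 2, which was at -2.08, the difference was -0.11. Across the controls, where both genes varied by over 1 log2 unit, this ratio stayed within -1.24 to -0.91.

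**Figure D5:**
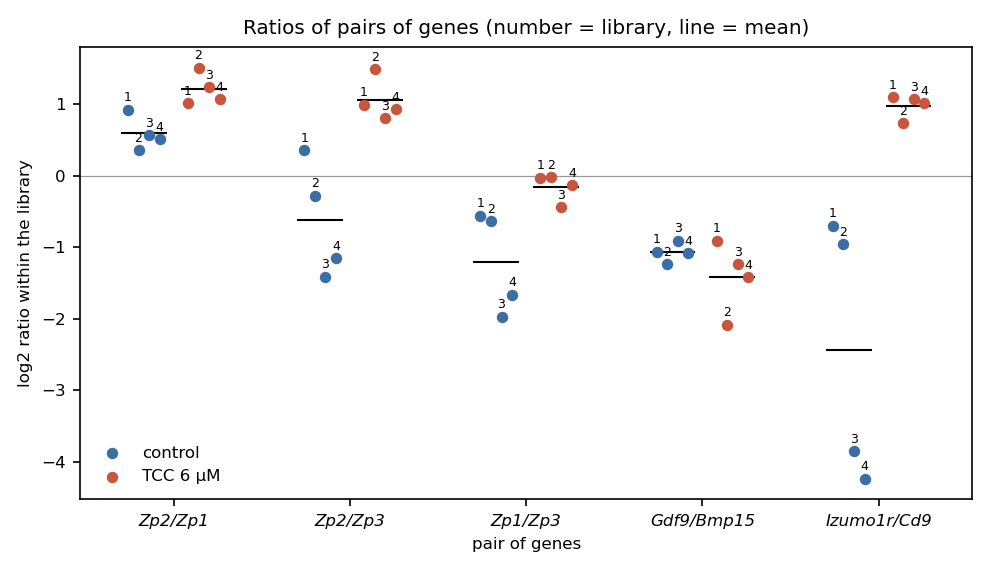
Log2 ratio within each library of (FPKM + 1) for 5 pairs of genes (horizontal axis) in control and triclocarban (TCC) libraries; points carry the library number and lines are means (n = 4). The groups do not overlap for 4 pairs and overlap for Gdf9/Bmp15.

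Ordered by mean FPKM, a level per length, the controls gave Oosp1, Bmp15, Gdf9, Cd9, Zp3, Zp2, Izumo1r, Zp1, Astl and Figla. Neighbours whose ranges overlapped there were Bmp15 and Gdf9, Gdf9 and Cd9, Zp3 and Zp2, Zp2 and Izumo1r, Izumo1r and Zp1, and Zp1 and Astl. With triclocarban the order was Oosp1, Bmp15, Gdf9, Izumo1r, Cd9, Zp2, Astl, Zp3, Zp1 and Figla. Neighbours from Izumo1r to Zp1 overlapped in range, and the first 3 genes were apart from each other and from Izumo1r. By rank among all 37310 genes, Izumo1r went from place 3257 to place 629, Astl from 4953 to 2443, and Zp3 from 1696 to 2823.

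Genes with the pattern most like a member were sought among 6765 tested protein-coding genes, by the root mean square difference of centred log2 values over the 8 libraries. Nearest to Izumo1r were Ninj2 at 0.10 and Oas1h at 0.18, where Izumo1r itself varied by 1.60 around its mean. Ninj2 was at 50.1, 46.9, 7.31 and 7.77 FPKM in the controls and at 159.6, 61.6, 147.3 and 164.9 with triclocarban, close to Izumo1r in each library. Nearest to Astl were Aknad1 at 0.04 and Ms4a6d at 0.07. Nearest to Zp2 were Zfp943 at 0.08 and Wee2, an oocyte kinase, at 0.09. Nearest to Zp3 were Nubp2 and Diablo, each at 0.11, to Zp1 Borcs5 at 0.10 and Copg1 at 0.11, and to Gdf9 Slc35b4 and Zfp108, each at 0.08. For Bmp15 these were Naa11 at 0.13 and Slc35a1 at 0.14, for Oosp1 Fancb at 0.11 and Csnk1e at 0.12, for Cd9 Aunip at 0.14 and Hikeshi at 0.15, and for Figla Aspscr1 at 0.11 and Rora at 0.14. With 8 libraries in 2 groups many genes share a course, and the likeness is a description of these libraries.

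Other genes of the same families or of related roles were counted in the same fit, where 11.3% of all genes tested were higher and 30.8% lower. The list named other oocyte-secreted or egg coat family genes held 8 genes, not all of these families: Wee2 is an oocyte kinase. Later counts of other oocyte-secreted genes are of this whole list. In it 7 were tested and 3 were higher, with a median log2 change of 1.32. They were the relatives of Oosp1 beside it on chromosome 19, Oosp2 and Oosp3, and Fetub, which encodes fetuin-B, an inhibitor of ovastacin. Oosp2 was at 129.4, 178.6, 77.6 and 73.8 FPKM in the controls and at 447.5, 460.3, 373.5 and 444.3 with triclocarban, or 1.99 on the log2 scale (limma adjusted p = 0.000465). Oosp3 was at 2020, 2394, 702.6 and 731.5 FPKM in the controls and at 4223, 3798, 4478 and 4478 with triclocarban, or 1.75 on the log2 scale (limma adjusted p = 0.00522). Both groups were apart for both genes, and controls 3 and 4 were again the low ones. Fetub went from 5.37 ± 3.46 to 18.4 ± 4.403 FPKM (SD, n = 4 each), or 1.75 on the log2 scale. Its controls 1 and 2 lay above controls 3 and 4 by 1.36 on that scale.

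The list named oocyte transcription factors held 10 genes, among them Gtsf1, which is not a transcription factor. Later counts of transcription factors are of this whole list. In it 8 were tested, 2 were higher and 2 lower, beside 11.3% higher and 30.8% lower over all genes tested. Nobox, an activator of Gdf9 and other oocyte genes, rose from 28.4 ± 18.5 to 99.0 ± 24.2 FPKM (SD, n = 4 each), or 1.98 on the log2 scale (limma adjusted p = 0.00449). Its controls 1 to 4 were at 46.25, 42.51, 13.90 and 11.01 FPKM. Controls 1 and 2 thus lay above controls 3 and 4 by 1.76 on the log2 scale, nearly as much as the change. Gtsf1, a factor of small RNA silencing in germ cells, rose by 1.01. Tcf12, which encodes an E protein of the class that pairs with FIGLA, fell by 1.07 on the log2 scale (limma adjusted p = 0.00709). Tcf3, another E protein gene, picked after its values were seen, was at 6.46 ± 2.19 and 6.43 ± 3.03 FPKM. The other lower gene, Taf4b, changed by -1.37 and was named after its values were seen.

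GDF9 and BMP15 act on follicle cells through serine/threonine kinase receptors and SMAD proteins. The counts of such genes stand beside 11.3% higher and 30.8% lower over all genes tested. Of 9 receptor genes 8 were tested and 2 were lower: Tgfbr1, which encodes the type I receptor used by GDF9, went from 17.1 ± 3.20 to 3.24 ± 0.82 FPKM (SD, n = 4 each), and Acvr2a, an activin receptor, from 4.12 ± 0.31 to 1.00 ± 0.68. Bmpr2, the type II receptor gene for both factors, also picked after its values were seen, was at 22.9 ± 2.14 and 19.6 ± 5.2 FPKM. Of 8 SMAD genes, the transducers of these receptors, 6 were tested and 1 was lower, the inhibitory SMAD gene Smad7, at 10.5 ± 3.74 and 0.71 ± 0.36 FPKM, or -2.71 on the log2 scale (limma adjusted p = 7.83e-05). Of 4 proprotein convertase genes, whose enzymes cut such factors from their precursors, 2 were tested and Pcsk7 was lower, at -0.96. Of 7 secreted antagonists 2 were tested and 0 passed by limma (0 at an unadjusted p under 0.05), with Twsg1 at 0.32. Of 13 other ligands of the family 2 were tested and 0 passed by limma (1 at an unadjusted p under 0.05), with Bmp6 at -0.69 (limma adjusted p = 0.0624).

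Of 26 tetraspanins and partners of CD9, 15 were tested, 3 were lower and 1 was higher, with a median log2 change of 0.11. Over all genes tested, 30.8% were lower and 11.3% higher, which also stands beside the other counts here. Cd63, a tetraspanin of endosomes, fell from 229.2 ± 111.6 to 8.70 ± 4.41 FPKM (SD, n = 4 each), or -4.57 on the log2 scale (limma adjusted p = 5.21e-05). Tspan4 changed by -1.96 and Cd151 by -1.15, and the higher gene, named after its values were seen, was Tspan12 at 1.55. Cd81, the tetraspanin that shares the role of CD9 in fusion, picked likewise, did not pass the filter and reached at most 2.04 FPKM. Of the relatives of JUNO, the folate receptor genes Folr1 and Folr2 were both lower: Folr1 was at 73.4, 70.2, 182.2 and 162.8 FPKM in the controls and at 5.62, 0.447, 11.7 and 8.65 with triclocarban (limma adjusted p = 0.000291). Folr1 thus lay high in controls 3 and 4, where Izumo1r was low. Of 18 genes of cortical granule exocytosis, the step that releases ovastacin, 15 were tested, 3 were higher and 2 lower. Nsf, which encodes a factor of membrane fusion, changed by 1.46, the small GTPase gene Rab11b by -1.26 and Vamp1 by -1.08. The other higher genes, named after their values were seen, were Myo5b and Padi6, at 0.92 and 1.03. Padi6 is also among the markers of oocyte and zygote, so its rise is counted in both lists. Controls 1 and 2 lay above controls 3 and 4 for the higher genes Tspan12, Nsf, Myo5b and Padi6, by 1.33, 1.34, 0.94 and 0.93 on the log2 scale.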

How the data were processed

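The authors deposited FPKM for each of the 8 libraries. STAR, StringTie, featureCounts, DESeq2 1.30.1 and the build mm10 appear in the submitters' processing notes, without roles. The tool behind the FPKM, its annotation release and its strand setting were not given in the sources used here. The labels' protocols describe both a kit for total RNA and a preamplified cDNA protocol. Of low values, 6.8 to 9.3% lay within 0.02 of a whole number of fragments (chance 4%), so counts were not recovered and no count test was run. Precision rests on 4 libraries a group.

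Identifiers were matched to GENCODE release M21 (GRCm38); 87.4% matched. The 12941 genes at or above 1 FPKM in 4 or more libraries were tested with limma 3.58.1 (lmFit, eBayes with trend) on log2(FPKM + 1) in R 4.3.3, FPKM as deposited, 6 residual degrees of freedom, Benjamini-Hochberg adjustment over all genes tested, threshold 0.05. Ratios within libraries were compared by exact permutation. The limma step was tested on simulated data. Python 3.11.15 was used with scipy 1.17.1, numpy 2.4.6 and pandas 2.3.3 for the rest. Members, lists, tests and alternatives were chosen with earlier results of these data known. Named were all 10 members, of each other list up to 3 genes past the threshold with the smallest adjusted p (otherwise the gene with the smallest p), and for each member the 2 most alike genes with a mean of at least 5 FPKM and no predicted name. Of the marker lists the summed levels are given, and genes named from them were picked after their values were seen. Alternatives were other pseudocounts, filters and scalings (one without mitochondrial genes), the replicate block, library weights, no trend, a minimum change, and leaving out libraries.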

Additional observations from a re-analysis of the deposited data

Results flagged for a closer look

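Triclocarban library 2 stood apart from the other treated libraries for 3 of the genes. Its gap to the nearest other treated library took 0.968 of the whole range of log2(FPKM + 1) for Izumo1r, 0.933 for Cd9 and 0.850 for Oosp1, above the 95% critical value of Dixon for 4 samples. In each case it was the lowest library, at 54.6 FPKM for Izumo1r, 32.5 for Cd9 and 2344 for Oosp1. Among 30 groups of 4 values examined (10 genes and 5 ratios in each condition), chance flags about 1 in 20, and the values share libraries. Without this library Izumo1r changed by 2.96, Cd9 by -0.54 and Oosp1 by 0.90.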

How the results depend on the processing

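Izumo1r passed the threshold under all 20 alternatives and Zp3 under 19. Of the 10 genes, 3 were higher and 1 lower with all libraries. The higher count was 5 with median-of-ratios scaling or array weights, 1 with no filter, 7 without control libraries 1 and 2 and 1 without control libraries 3 and 4; the lower count was 2 and 0 in these last settings. Leaving out 1 library gave 1 to 5 higher and 1 to 2 lower. Over all genes tested the number higher was 2638 with median-of-ratios scaling, 2915 with quantile normalization, 2838 without controls 1 and 2, 695 without controls 3 and 4 and 953 to 1860 without 1 library; the number lower was 2487 with a mean of at least 5 FPKM, where fewer genes were tested. The cause of the other changes was not tested.

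The replicate number as a block gave the same counts save for all genes (1544 higher, 4061 lower) and the other oocyte-secreted genes (4 higher) and moved Oosp1 (limma adjusted p = 0.0753) and Astl (0.0261) across the threshold. Deviations of same-numbered libraries correlated at 0.34, 0.05, 0.09 and 0.10 across genes. Controls 1, 3 and 4 correlated best with the treated library of their own number, and control 2 with triclocarban library 1 (0.14). Correlations this weak cannot decide whether the numbers pair the libraries. For the ratios the replicate block leaves the differences as they are by construction (0.61, 1.67, 1.06 and 3.42) and 4 pairs allow no p below 0.125, so it says nothing of their stability. Without controls 1 and 2 the differences were 0.66 for Zp2/Zp1, 2.33 for Zp2/Zp3, 1.66 for Zp1/Zp3 and 5.02 for Izumo1r/Cd9, and without controls 3 and 4 they were 0.56, 1.01, 0.45 and 1.81, where no p can be below 0.0667. Leaving out 1 library gave 0.51 to 0.72, 1.41 to 1.99, 0.80 to 1.27 and 2.82 to 3.99; the adjusted p was 0.0952 to 0.143 whenever a triclocarban library was left out.

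In the other lists, with a change of at least 1 or a mean of at least 5 FPKM 0 convertases were lower; with the latter 1 receptor, 1 folate receptor and 1 cortical granule gene were lower. With array weights 1 folate receptor was lower and 1 other ligand higher and 1 lower. With no filter 2 SMAD genes and 1 folate receptor were lower and 1 cortical granule gene higher. With median-of-ratios scaling 3 tetraspanin genes and 1 ligand were higher and 1 transcription factor lower. With quantile normalization 3 SMAD genes, 1 antagonist and 4 tetraspanin genes were higher, and 1 folate receptor, 0 convertases and 0 transcription factors lower. Without controls 1 and 2, 2 receptors, 2 SMAD genes, 1 antagonist, 1 ligand, 5 other oocyte-secreted, 6 tetraspanin and 5 cortical granule genes were higher. Without controls 3 and 4, 0 tetraspanin genes, 1 transcription factor and 1 cortical granule gene were higher, and 1 ligand, 1 transcription factor and 1 folate receptor lower. Leaving out 1 library gave 0 to 1 SMAD genes, 0 to 1 ligands and 1 to 4 cortical granule genes higher, and 0 to 1 ligands, 1 to 2 transcription factors and 1 to 2 folate receptors lower.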
